A study of Mus musculus with 17 samples.

Results

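The comparison set 3 Tyrphostin libraries against 5 Control libraries of mouse ovarian follicles, the 8 of the 17 RNA-seq libraries that carry the label of batch 2. The batch and treatment labels chose them, and no measured value did. All follicles came from CD1 mice aged 16 days, had spent 8 days in eIVFG (encapsulated in vitro follicle growth, a culture in which single follicles grow in a gel) and were antral. The Tyrphostin follicles then received 10 µM Tyrphostin-AG1478, dissolved in DMSO, with hCG (human chorionic gonadotropin) for 4 h. One and the same treatment text is printed for all libraries, so the labels leave unsaid whether Control follicles had hCG or DMSO. Follicles were taken in triplicate for each sample. Library names place Control 7 and Control 8 in set 4, Control 9 in set 5 and Control 10 and Control 11 in set 6, and give Tyrphostin 4, Tyrphostin 5 and Tyrphostin 6 the numbers 4, 5 and 6. The sources used here do not say whether libraries of a set share animals or cultures, so p-values measure the spread between these libraries, which may be partly technical.

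Tyrphostin-AG1478 blocks the kinase of the epidermal growth factor receptor (EGFR). In the ovary, luteinizing hormone, or hCG in its place, acts on mural granulosa cells, which then release the EGF-like ligands amphiregulin, epiregulin and betacellulin. These bind EGFR on granulosa and cumulus cells, the kinase ERK is activated, and genes for prostaglandin synthesis, for the hyaluronan matrix of the cumulus and for follicle rupture are switched on, while genes of the preceding, FSH-driven stage such as aromatase are switched off.

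Total counts ran from 2483183 in Control 9 to 8291024 in Control 8, and 12538 to 16383 genes had a count. A floor of 3 counts corresponds to 0.362 to 1.21 CPM (counts relative to library size, with sizes scaled by TMM, a trimmed mean that corrects for composition). The granulosa transcripts Inha and Inhba, which encode inhibin subunits, were abundant in all 8 libraries (36100 to 54700 and 18700 to 26000 CPM). Foxl2, which encodes a granulosa transcription factor, had at most 9 counts in any library, and Amh, the anti-Müllerian hormone, at most 4. Both are defining granulosa markers, and neither passed the filter. Of 13 library measures (depth, genes detected and shares of counts in gene groups), 0 passed between the groups (exact two-sided permutation test over 56 arrangements, lowest p = 0.143, lowest adjusted p = 0.812). Since the smallest p possible is 0.0357 before adjustment, a single measure could not have passed, and the test does not show that the groups were alike.

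Of 25198 genes in the table, 9830 passed the filter on low counts, and 61 of these (0.621%) passed edgeR's quasi-likelihood test at an adjusted p of 0.05. Among them 19 (0.193%) were higher and 42 (0.427%) lower in Tyrphostin libraries, while the median log2 fold change (log2 FC, Tyrphostin over Control) over all tested genes was -0.01. The calls were large changes: the smallest were 1.11 (Wdr6) and -1.22 (Pik3r1) on the log2 scale. At an unadjusted p under 0.05 there were 1047 genes. With total counts in place of TMM the calls split into 26 higher and 29 lower, and the median over all genes was 0.11. Values below are on the TMM scale, except summed levels of gene lists. In all 61 called genes, the 3 Tyrphostin libraries lay wholly above or wholly below the 5 Control libraries, as they did in 9.13% of all genes tested (4.28% above, 4.84% below). The RNA came from whole follicles, so fewer cells of a type and less RNA per cell cannot be told apart.

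**Figure D1:**
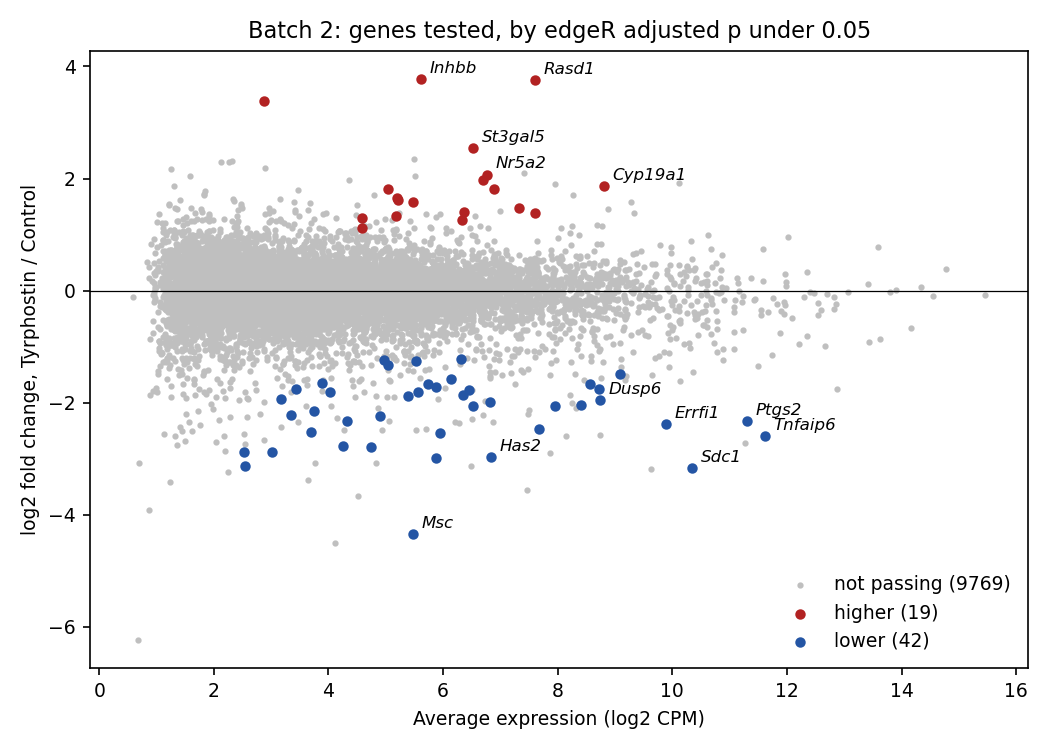
Log2 fold change of Tyrphostin over Control (vertical axis) against average expression in log2 CPM (horizontal axis) for the 9830 genes tested in batch 2, one point per gene. Red points are the 19 genes that passed the threshold upwards and blue points the 42 that passed it downwards, with Inhbb (3.78) the highest and Msc (-4.35) the lowest of them.

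Has2, Tnfaip6 and Ptgs2 fell. Has2, which encodes the synthase that makes hyaluronan for the cumulus matrix, stood at 174, 116, 159, 204 and 197 CPM in Control 7 to Control 11 and at 18.3, 19.8 and 27.1 CPM in Tyrphostin 4 to Tyrphostin 6. Its log2 FC was -2.97 ± 0.29 (SE; adjusted p = 0.00133, edgeR). The lowest Control library was thus over 4 times the highest Tyrphostin library. Tnfaip6, whose protein links hyaluronan to heavy chains and so stabilises that matrix, had 5080, 3940, 5790, 3590 and 4340 CPM in the Control libraries and 1060, 481 and 736 CPM in the Tyrphostin libraries, giving log2 FC -2.59 ± 0.34 (SE; adjusted p = 0.0058, edgeR). Ptgs2, the inducible cyclooxygenase of prostaglandin synthesis, had 3300, 3780, 5080, 3090 and 2850 CPM against 1090, 523 and 546 CPM, giving log2 FC -2.33 ± 0.35 (SE; adjusted p = 0.0127, edgeR). Tyrphostin 4 was the highest of its group for Tnfaip6 and Ptgs2, while the groups stayed apart for all 3 genes. Without Tyrphostin 6, Has2 kept its call and Tnfaip6 (edgeR adjusted p = 0.064) and Ptgs2 (edgeR adjusted p = 0.125) did not. Ptgs2 also missed the threshold without Tyrphostin 5 (edgeR adjusted p = 0.1). Has2os, read from 18 to 49 counts in Control and from 4, 1 and 9 counts in Tyrphostin libraries, is an antisense gene of Has2. Smart-Seq2 libraries do not mark the strand, so reads from any stretch that Has2 and Has2os share cannot be told apart. How such reads were counted is not given, which leaves the call of Has2os uncertain.

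Windows around the start sites of Ptgs2 and Tnfaip6 are shown because each holds a motif of a factor family that the ovulatory signal is known to use, and because their transcripts moved together. Each window is the RefSeq sequence of GRCm38.p6 from 250 bases before to 50 bases after the start, on the plus strand. That of Ptgs2 lies at chr1:150099781-150100080, and the capitals mark an E-box (CACGTG) 16 to 21 bases after the start. That of Tnfaip6 lies at chr2:52037863-52038162, and the capitals mark an AP-1 motif (TGANTCA) 142 to 136 bases before the start.
Ptgs2: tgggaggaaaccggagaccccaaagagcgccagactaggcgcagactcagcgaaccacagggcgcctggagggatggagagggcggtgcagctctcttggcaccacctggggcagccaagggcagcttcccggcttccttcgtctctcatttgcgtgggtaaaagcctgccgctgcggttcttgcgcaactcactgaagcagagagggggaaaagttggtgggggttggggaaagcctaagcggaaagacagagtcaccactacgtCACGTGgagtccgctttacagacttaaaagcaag
Tnfaip6: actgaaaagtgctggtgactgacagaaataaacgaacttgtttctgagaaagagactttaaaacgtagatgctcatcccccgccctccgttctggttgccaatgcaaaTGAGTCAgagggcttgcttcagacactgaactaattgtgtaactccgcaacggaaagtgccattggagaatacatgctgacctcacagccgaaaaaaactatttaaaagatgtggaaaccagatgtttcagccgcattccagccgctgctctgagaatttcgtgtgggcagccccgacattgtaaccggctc
Among the 61 called genes, 48 had a window, with 28 windows for 16 higher genes and 41 for 32 lower genes. Searched on both strands, CACGTG was found in 4 of the 41 windows of lower genes and 0 of the 28 of higher genes, against 10.5% of the windows of tested genes and 7.15% of all 32851 windows. TGANTCA was found in 5 and 2 of them, against 4.91% and 7.81%, and the 2 windows of higher genes were both of Junos. No motif searched contains another, and a match is a description of letters in a window.

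The list of ovulatory response genes had 26 members, of which 23 were tested. Of these 0 were called higher and 3 lower (Has2, Tnfaip6 and Ptgs2), beside 0.193% and 0.427% of all genes tested. The list's median log2 FC was -1.17 beside -0.01 for all genes. The groups did not overlap for 10 members in the lower direction and for 1, Nrip1, in the higher, beside 4.84% and 4.28% of all genes tested. Several members had large fold changes and a spread too wide for the test. Ptx3, a further protein of the cumulus matrix, had 8.24, 13.7, 77.5, 39.4 and 36.8 CPM in Control and 2.05, 1.72 and 4.22 CPM in Tyrphostin libraries, giving log2 FC -3.67 ± 0.76 (SE; adjusted p = 0.0646, edgeR). Runx2, a transcription factor induced at ovulation, had 10.2, 31.5, 74.7, 51 and 68.5 CPM against 14.8, 8.02 and 5.02 CPM (edgeR adjusted p = 0.138). Control 7 lay inside the Tyrphostin range for Runx2 and next to it for Ptx3. Sult1e1, an oestrogen sulfotransferase, showed the same order, with 906 CPM in Control 7, 7040 CPM in Control 9 and 231 to 884 CPM in Tyrphostin libraries. Pgr, the progesterone receptor needed for rupture, had 404, 1020, 2020, 595 and 1440 CPM against 798, 347 and 317 CPM, and its groups overlapped (log2 FC -1.17, edgeR adjusted p = 0.455). Among the 23 members, Control 7 was the lowest Control library for 10 and Control 9 the highest for 12. Summed over the list, relative to total counts, Control 7 held 19597 CPM, beside 15889 CPM in Tyrphostin 5 and 23151 CPM in Tyrphostin 4. Whether Control 7 lay above or below Tyrphostin 4 depends on the scaling.

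The ligands and receptor of the pathway itself gave no call. In the list of EGF ligands, receptors and their processing proteases, 12 of 16 members were tested, 0 passed in edgeR, and the median log2 FC was -0.45. At an unadjusted p under 0.05 there were 5, beside 1047 of all 9830 genes tested. Egfr had 18.1 to 51.9 CPM in Control and 15.5 to 40.6 CPM in Tyrphostin libraries, and its log2 FC was -0.26 ± 0.39 (SE). Ereg, epiregulin, had 6650 to 13600 CPM in Control and 11600, 7750 and 5990 CPM in Tyrphostin libraries, a log2 FC of -0.02 ± 0.33 (SE). Areg, amphiregulin, had 200, 216, 152, 74.8 and 117 CPM against 122, 65.3 and 21.9 CPM, with log2 FC -1.12 ± 0.50 (SE; adjusted p = 0.454, edgeR). Btc, betacellulin, was the member whose p was lowest: 2280, 2990, 4800, 4130 and 4360 CPM against 1930, 1160 and 1320 CPM. Its groups did not overlap, and its log2 FC was -1.34 ± 0.33 (SE; adjusted p = 0.0997, edgeR).

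Of the transcripts that ERK signalling is known to induce, 3 were called lower. In the list of ERK feedback and immediate early genes 23 of 27 members were tested. Of these 0 were called higher and 3 lower (Errfi1, Dusp6 and Fosl1), beside 0.193% and 0.427% of all genes tested. The median log2 FC was -0.83, beside -0.01 for all genes. The groups did not overlap for 11 members in the lower direction and 2 in the higher, beside 4.84% and 4.28% of all genes tested. Errfi1 encodes an inhibitor that binds the kinase domain of EGFR. It had 1640, 1540, 1860, 843 and 930 CPM in Control and 303, 295 and 188 CPM in Tyrphostin libraries, giving log2 FC -2.38 ± 0.36 (SE; adjusted p = 0.0127, edgeR). Dusp6, the phosphatase that removes the activating phosphates of ERK, had 765, 578, 633, 462 and 532 CPM against 193, 141 and 123 CPM, giving log2 FC -1.96 ± 0.28 (SE; adjusted p = 0.00887, edgeR). Fosl1, a subunit of AP-1, had 12.1, 14.8, 15.3, 9.63 and 8.28 CPM against 1.9, 4.01 and 3.61 CPM, giving log2 FC -1.94 ± 0.37 (SE; adjusted p = 0.0386, edgeR). For Errfi1 the 5 Control libraries fell into a higher trio and the lower Control 10 and Control 11, all above the Tyrphostin libraries. These 3 calls depended on single libraries. Errfi1 missed the threshold without Tyrphostin 4, Tyrphostin 5 or Tyrphostin 6 (edgeR adjusted p = 0.0602, 0.0896 and 0.119). Dusp6 missed it without Tyrphostin 5 or Tyrphostin 6 (edgeR adjusted p = 0.0998 and 0.0872). Fosl1 kept its call in 2 of 8 omissions, with an edgeR adjusted p of up to 0.175.

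The window of Errfi1, at chr4:150854820-150855119 on the plus strand of GRCm38.p6, is shown because it holds a full cAMP response element (TGACGTCA, in capitals) 51 to 44 bases before the start, and cAMP is the second messenger of hCG.
Errfi1: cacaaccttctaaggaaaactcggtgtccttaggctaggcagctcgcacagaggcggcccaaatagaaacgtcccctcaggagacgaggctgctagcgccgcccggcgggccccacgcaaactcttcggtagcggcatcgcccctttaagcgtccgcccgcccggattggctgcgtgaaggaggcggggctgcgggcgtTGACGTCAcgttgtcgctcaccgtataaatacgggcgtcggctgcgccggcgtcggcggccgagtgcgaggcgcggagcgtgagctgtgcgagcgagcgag
It was the only lower window of 41 with these letters, and 3 of the 28 windows of higher genes held them (those of Clasp2, Peg3 and Wdr82), against 3.26% of the windows of tested genes and 1.79% of all windows. The ETS motif CCGGAAG, bound by factors that ERK phosphorylates, was in 0 of 41 and 0 of 28 windows and in 18.7% of the windows of tested genes.

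Not all immediate early genes shared that direction. Egr1, a zinc finger factor, had 693, 1080, 744, 686 and 648 CPM in Control and 366, 309 and 126 CPM in Tyrphostin libraries, a log2 FC of -1.53 that missed the threshold (edgeR adjusted p = 0.0894). Egr3 had 11.3 to 38.9 CPM against 9.67, 2 and 3.01 CPM (log2 FC -2.28, edgeR adjusted p = 0.0832). Jun, the partner of Fos proteins in AP-1, had 345, 352, 222, 230 and 249 CPM against 664, 692 and 531 CPM, giving log2 FC 1.17 ± 0.25 (SE; adjusted p = 0.0646, edgeR). The groups for Egr1, Egr3 and Jun did not overlap. Junos, the antisense gene at Jun, did pass, with 43 to 71.4 CPM in Control and 141, 137 and 99.6 CPM in Tyrphostin libraries (log2 FC 1.26, edgeR adjusted p = 0.0347). Without strand, reads from any stretch it shares with Jun cannot be separated from those of Jun. Fos, Dusp1 and Etv5 had log2 FCs of -0.27, 0.10 and 0.13, and their groups overlapped.

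The largest decrease among called genes was in Msc, which encodes musculin, a basic helix-loop-helix repressor. It had 48.1, 76.2, 101, 56.6 and 63.7 CPM in Control and 4.1, 3.72 and 2.21 CPM in Tyrphostin libraries, a 20.4-fold difference. Its log2 FC was -4.35 ± 0.36 (SE), with the lowest adjusted p of all genes (edgeR adjusted p = 0.000537). The groups were far apart, and Msc kept its call in 8 of 8 omissions, with log2 FCs of -4.55 to -4.12. Sdc1, the cell surface proteoglycan syndecan-1, had 1470, 1800, 1670, 3480 and 1350 CPM against 205, 266 and 178 CPM, giving log2 FC -3.17 ± 0.39 (SE; adjusted p = 0.00493, edgeR). Control 10 stood above the other Control libraries for this gene. Without Tyrphostin 6 its edgeR adjusted p was 0.055.

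**Figure D2:**
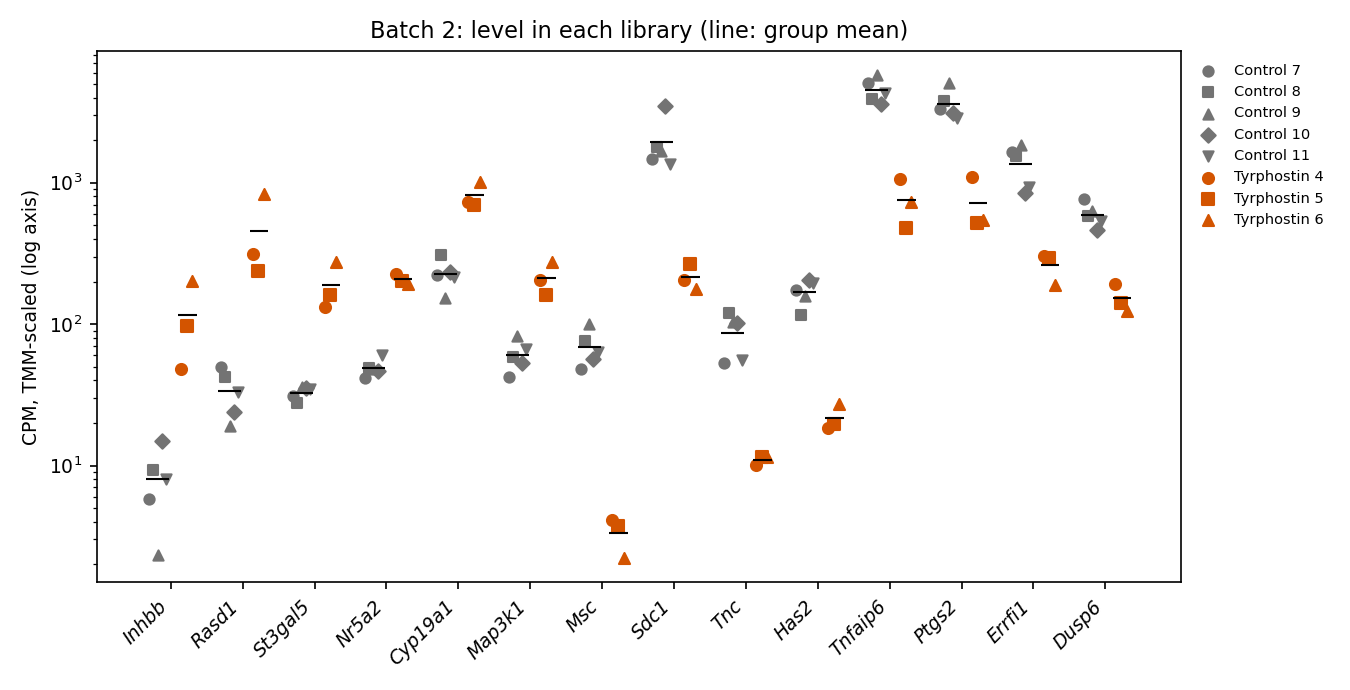
TMM-scaled CPM on a log axis for 14 called genes in each of the 8 batch 2 libraries, with grey symbols for the 5 Control libraries, orange symbols for the 3 Tyrphostin libraries and a black line at each group mean. The 6 genes at the left are higher and the 8 at the right lower in every Tyrphostin library, and the Tyrphostin symbols spread widely for Inhbb (47.8 to 201 CPM) and Rasd1 (239 to 826 CPM) but little for Nr5a2 (192 to 228 CPM) and Tnc (10.1 to 11.5 CPM).

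Called lower genes also included Tnc, Itga5 and Flnc. Tnc, the matrix glycoprotein tenascin-C, had 53.3, 120, 104, 102 and 55.9 CPM in Control and 10.1, 11.5 and 11.4 CPM in Tyrphostin libraries, giving log2 FC -2.99 ± 0.34 (SE; adjusted p = 0.00304, edgeR). Itga5, the fibronectin receptor subunit, had 597, 527, 632, 363 and 425 CPM against 191, 161 and 127 CPM, giving log2 FC -1.67 ± 0.28 (SE; adjusted p = 0.0249, edgeR). Tnc kept its call in every omission of 1 library and Itga5 in 3 of 8. Flnc, the actin crosslinker filamin C, chosen after its values were seen, had 20.9 to 36.1 CPM against 6.15, 5.44 and 5.22 CPM (log2 FC -2.33, edgeR adjusted p = 0.00333) and kept its call in 8 of 8. Also chosen after their values were seen, Mical1 and Mical2, which oxidise actin filaments, Tagln2, an actin binding protein, and Rnd3, a small GTP-binding protein that loosens actin fibres, had log2 FCs of -1.65, -1.66, -1.49 and -2.04, and each kept its call in no more than 2 of 8 omissions. In the list of matrix and adhesion genes, of 26 tested members 1 was called, Itga5, beside 0.621% of all genes tested. The median log2 FC of the list was -0.15, near that of all genes. Spp1, osteopontin, ranged from 149 to 2410 CPM within Control alone (edgeR adjusted p = 0.374), and the laminin gene Lama1 had a log2 FC of 0.91 (edgeR adjusted p = 0.336). The covalent crosslinking enzyme Tgm1 was called lower from 13 to 71 counts in Control and from 3, 2 and 11 counts in Tyrphostin libraries, and kept its call in 2 of 8 omissions.

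The cytokine gene Il23a was called lower. Il23a, a subunit of interleukin-23, had 4.39, 13.7, 11.6, 18.7 and 8.51 CPM in Control and 1.61, 0.859 and 2.01 CPM in Tyrphostin libraries, giving log2 FC -2.88 ± 0.51 (SE; adjusted p = 0.0303, edgeR). It kept its call in 2 of 8 omissions. It was the 1 call among 15 tested members of the list of cytokines and neuropeptides, beside 0.621% of all genes tested. The median log2 FC of the list was -0.78. In that list the groups were apart for 6 members in the lower direction, beside 4.84% of all genes tested. The neuropeptide genes Nts and Adcyap1 had log2 FCs of -3.56 and -3.13 but wide Control ranges, 80.2 to 767 and 31.7 to 383 CPM (edgeR adjusted p = 0.135 and 0.148). Chosen after their values were seen, the receptor gene Il17ra had 50, 130, 145, 118 and 110 CPM against 38.1, 32.3 and 20.1 CPM (log2 FC -1.87), the cytokine gene Clcf1 a log2 FC of -1.75, and the Wnt ligand and Wnt antagonist genes Wnt2 and Sfrp2 values of -2.22 and -2.14. Their edgeR adjusted p-values were 0.0423, 0.0347, 0.0303 and 0.0331, and each kept its call in 1 or 2 of 8 omissions.

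Jag1 and Heyl were called lower. Jag1, a Notch ligand, chosen after its values were seen, had 102, 111, 114, 117 and 149 CPM in Control and 48.5, 31.2 and 24.5 CPM in Tyrphostin libraries, giving log2 FC -1.77 ± 0.28 (SE; adjusted p = 0.0147, edgeR), and it lost its call without Tyrphostin 5 or Tyrphostin 6 (edgeR adjusted p = 0.114 and 0.104). Heyl, a repressor that Notch induces, had 67.8, 134, 23.7, 114 and 99.8 CPM against 14.5, 12.6 and 18.3 CPM, giving log2 FC -2.54 ± 0.48 (SE; adjusted p = 0.041, edgeR). The groups did not overlap, but Control 9 lay close to the Tyrphostin libraries, and Heyl kept its call in 1 of 8 omissions, that of Control 9. With Control libraries summed by set its edgeR adjusted p was 0.11. Other genes of the pathway, looked up after these values, gave no call in edgeR: Notch2 had a log2 FC of -1.24 (adjusted p = 0.103), Notch1 -1.06 (0.266), Hes1 -2.51 (0.366), Hey1 -0.35 (0.853) and the ligand gene Jag2 0.31 (0.924).

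The remaining lower genes named by size had varied roles. The log2 FCs were -2.79 for Pxdc1, -2.78 for Gpr83, a G protein-coupled receptor, -2.52 for Reps1, an endocytic adaptor, and -2.47 for Fam110c, with edgeR adjusted p-values of 0.0299, 0.0058, 0.0212 and 0.00499. They kept their calls in 3, 7, 4 and 7 of 8 omissions. Of these, Fam110c had 394, 354, 217, 241 and 258 CPM in Control and 65.6, 53.8 and 39.1 CPM in Tyrphostin libraries. Chosen after their values were seen, Pparg, a lipid-sensing nuclear receptor, had 157, 122, 250, 81.8 and 168 CPM against 39, 32.1 and 46.8 CPM, and Gfpt2, which feeds hexosamine synthesis and so the sugar precursors of hyaluronan, 770, 423, 547, 572 and 559 CPM against 145, 134 and 232 CPM. Their log2 FCs were -1.98 and -1.75 (edgeR adjusted p = 0.0305 and 0.0256), and they kept their calls in 3 and 2 of 8 omissions. Hmga1b was called (log2 FC -1.88), and its near copy Hmga1 was not (log2 FC -1.66, edgeR adjusted p = 0.0646), so how reads were shared between them leaves the call uncertain.

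Among the higher genes were several of the preovulatory granulosa cell. In that list 19 of 23 members were tested. Of these 3 were called higher (Inhbb, Nr5a2 and Cyp19a1) and 0 lower, beside 0.193% and 0.427% of all genes tested. The median log2 FC was 0.81, beside -0.01 for all genes. The groups did not overlap for 7 members in the higher direction and 0 in the lower, beside 4.28% and 4.84% of all genes tested. Inhbb, the beta B subunit of inhibin and activin, had 5.77, 9.25, 2.32, 15 and 8.05 CPM in Control and 47.8, 97.6 and 201 CPM in Tyrphostin libraries, giving log2 FC 3.78 ± 0.51 (SE; adjusted p = 0.00887, edgeR). For the other subunit genes, log2 FC was -0.07 (Inha) and -0.09 (Inhba). Nr5a2, the nuclear receptor LRH-1, had 41.7, 49.1, 48.3, 46.9 and 60.7 CPM against 228, 202 and 192 CPM, giving log2 FC 2.07 ± 0.21 (SE; adjusted p = 0.00133, edgeR). Its relative Nr5a1 had a log2 FC of -0.24 and overlapping groups. Cyp19a1, aromatase, the enzyme that makes oestradiol, had 224, 306, 152, 234 and 215 CPM against 736, 700 and 1020 CPM, giving log2 FC 1.86 ± 0.27 (SE; adjusted p = 0.00887, edgeR). The 3 genes differed in how the Tyrphostin libraries stood to each other: they ran from 192 to 228 CPM for Nr5a2, and Tyrphostin 6 was highest for Inhbb and Cyp19a1. Without Tyrphostin 6 the edgeR adjusted p of Cyp19a1 was 0.0688, while Inhbb and Nr5a2 kept their calls in every omission of 1 library. With Control libraries summed by set, the call of Inhbb ended (edgeR adjusted p = 0.0742).

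Other members of the list had large fold changes that missed the threshold. Hsd17b1, which converts oestrone to oestradiol, had 56.8, 85.2, 20.4, 132 and 85.8 CPM in Control and 148, 231 and 605 CPM in Tyrphostin libraries (log2 FC 2.10, edgeR adjusted p = 0.126). Prkar2b, a regulatory subunit of protein kinase A, had 39.5, 61.9, 187, 145 and 176 CPM against 288, 261 and 819 CPM (log2 FC 1.91, edgeR adjusted p = 0.15). Both sets of groups were apart, and Tyrphostin 6 was again the highest library. Lhcgr, the receptor for hCG, had 292 to 1280 CPM against 1000 to 1500 CPM (log2 FC 0.81, edgeR adjusted p = 0.556). Nppc and Npr2, the peptide and receptor that hold the oocyte in arrest, had log2 FCs of 0.84 and 0.51 (edgeR adjusted p = 0.369 and 0.475). Fst, follistatin, had 464 CPM in Control 9 and 43.2 to 112 CPM in the other 7 libraries.

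Called higher genes also included Rasd1, Map3k1, Rasgef1b and Ptpn13. Rasd1, a Ras-like protein that hormones induce, had 49.7, 42.5, 19, 23.8 and 32.9 CPM in Control and 312, 239 and 826 CPM in Tyrphostin libraries, giving log2 FC 3.76 ± 0.43 (SE; adjusted p = 0.00304, edgeR). Map3k1, a kinase upstream of JNK, had 42, 58.6, 83.1, 52.9 and 66.2 CPM against 205, 162 and 273 CPM, giving log2 FC 1.82 ± 0.27 (SE; adjusted p = 0.00941, edgeR). Rasd1 kept its call in 8 of 8 omissions and Map3k1 lost it without Tyrphostin 6 (edgeR adjusted p = 0.0688). Rasgef1b, an exchange factor for Ras-like proteins, and Ptpn13, a tyrosine phosphatase, had log2 FCs of 1.97 and 1.65 (edgeR adjusted p = 0.00887 and 0.0058). Ptpn13 had 17.8 to 22.8 CPM in Control and 70.8, 71.3 and 46.8 CPM in Tyrphostin libraries, with Tyrphostin 6 the lowest of its group, and kept its call in all 8 omissions. Rasgef1b lost it without Tyrphostin 5 (edgeR adjusted p = 0.0718) or Tyrphostin 6 (edgeR adjusted p = 0.0682). In the list of cAMP and protein kinase A signalling, Rasd1 was the 1 call among 19 tested members, beside 0.621% of all genes tested. The median log2 FC of the list was 0.15. Per1, a clock gene that cAMP induces, had 36.8 to 60.8 CPM in Control and 17, 25.2 and 16.3 CPM in Tyrphostin libraries (log2 FC -1.21, edgeR adjusted p = 0.0646).

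St3gal5, the synthase of the ganglioside GM3, had 30.8, 27.5, 35.7, 35.1 and 34.7 CPM in Control and 133, 160 and 277 CPM in Tyrphostin libraries, giving log2 FC 2.54 ± 0.26 (SE; adjusted p = 0.00133, edgeR). Its Control libraries differed little, and it kept its call in 8 of 8 omissions. Its window, at chr6:72097358-72097657 on the plus strand of GRCm38.p6, is shown as that of a higher gene whose Control values were even and whose window held a motif searched. The capitals mark the reverse complement of the EGR motif GCGGGGGCG, 45 to 37 bases before the start.
St3gal5: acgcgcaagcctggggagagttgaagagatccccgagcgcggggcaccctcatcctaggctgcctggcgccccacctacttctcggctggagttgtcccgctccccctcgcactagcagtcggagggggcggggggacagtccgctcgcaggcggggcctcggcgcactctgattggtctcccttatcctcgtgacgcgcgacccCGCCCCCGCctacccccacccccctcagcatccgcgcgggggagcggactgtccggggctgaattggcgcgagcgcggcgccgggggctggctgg
These letters were in 2 of the 28 windows of higher genes and 4 of the 41 of lower genes, against 5.61% of the windows of tested genes and 2.91% of all windows. The 4 windows belonged to 3 genes, since 2 were overlapping windows of Tnc that hold the same site. The other EGR spelling, GCGTGGGCG, was in 2 windows of higher and 1 of lower genes (1.31% and 0.612%). The NR5A motif CAAGGTCA was in 0 of both (1.02% and 1.56%). The CArG box was in 0 windows of higher and 2 of lower genes, those of Ncoa7 and Rnd3 (1.26% and 1.63%).

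Kirrel3os and 6 further genes completed the higher genes named by size. Kirrel3os had 2 to 21 counts in Control and 87, 37 and 116 counts in Tyrphostin libraries (log2 FC 3.39, edgeR adjusted p = 0.00887), while Kirrel3, its partner on the opposite strand, had a log2 FC of 0.30. Without strand the reads of the pair cannot be assigned with certainty, and without Tyrphostin 6 the edgeR adjusted p of Kirrel3os was 0.0791. Tubb3, a beta tubulin, had 16.8, 21, 20, 10.5 and 15.9 CPM against 30.8, 91 and 55 CPM, a log2 FC of 1.81 (edgeR adjusted p = 0.0347). It was highest in Tyrphostin 5, kept its call in 2 of 8 omissions and lost it with Control libraries summed by set (edgeR adjusted p = 0.0714). The log2 FCs of Dip2a, Wdr82, Me2 (mitochondrial malic enzyme), the imprinted gene Peg3 and the microtubule plus-end gene Clasp2 were 1.62, 1.58, 1.48, 1.41 and 1.38, with edgeR adjusted p-values of 0.0213, 0.042, 0.0448, 0.0345 and 0.0482. Dip2a kept its call in 4 of 8 omissions, Peg3 in 2 and Wdr82, Me2 and Clasp2 in 1, and Clasp2 also lost it with Control libraries summed by set (edgeR adjusted p = 0.0546).

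The lists of progesterone synthesis and sterol synthesis genes gave no call. For the synthesis of progesterone, 13 of 13 members were tested, 0 passed in edgeR (5 at an unadjusted p under 0.05), and the median log2 FC was -0.03. Star, which carries cholesterol into mitochondria, had 15100, 17800, 16000, 7810 and 10300 CPM in Control and 6850, 9420 and 5190 CPM in Tyrphostin libraries, a log2 FC of -0.91 (edgeR adjusted p = 0.328). Hsd3b1, which makes progesterone from pregnenolone, had 8520 to 11800 CPM against 15400, 11000 and 23100 CPM, a log2 FC of 0.77 (edgeR adjusted p = 0.309). For both genes the groups overlapped. All 22 sterol synthesis genes were tested, with a median of -0.03 and 1 at an unadjusted p under 0.05: Dhcr7, the last enzyme of cholesterol synthesis, with 172 to 274 CPM against 451, 429 and 436 CPM (log2 FC 1.03, edgeR adjusted p = 0.0726). In the lists of heat shock and unfolded protein genes (22 tested, median 0.07), of cell cycle genes (18 tested, median 0.14) and of NRF2 and aryl hydrocarbon receptor targets (9 tested, median -0.47), 0 were called, and 0, 3 and 4 had an unadjusted p under 0.05. Over all 9830 genes tested, 1047 had an unadjusted p under 0.05. Among receptors, SMADs and targets of the TGF-beta family, 1 of 24 tested members was called, Inhbb, beside 0.621% of all genes tested. The median was -0.06.

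How the 3 Tyrphostin libraries stood to each other differed by direction. In 29 of the 42 lower genes Tyrphostin 4 held the highest value of the 3, and in 25 Tyrphostin 6 held the lowest. In 15 of the 19 higher genes Tyrphostin 6 held the highest. Among abundant genes, those in which Tyrphostin 4 stood furthest above the other Tyrphostin libraries were Egr3, Runx1 (278 CPM against 115 and 79.5 CPM), Mast4, Flrt3 and Pgr (798 CPM against 347 and 317 CPM). Egr3, Runx1 and Pgr are members of the ovulatory and ERK lists, while Mast4 and Flrt3 are in neither. In some other members of the ovulatory list, such as Has2 and Adamts4, Tyrphostin 4 held the lowest value of the 3.

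Single libraries set how many genes passed. Leaving out Tyrphostin 6 left 11 calls, Tyrphostin 5 left 18 and Tyrphostin 4 left 35. Leaving out Control 8, Control 9, Control 10 or Control 11 left 28, 31, 32 and 40. Leaving out Control 7 gave 221 (83 higher, 138 lower), with 60 of the 61 among them. Genes called with all libraries and lost in any of these omissions kept their direction and an unadjusted p under 0.05, and the highest edgeR adjusted p among them was 0.238 (Snapc1, without 1 library). Only 9 kept the call in all 8 omissions: Inhbb, Rasd1, St3gal5, Nr5a2 and Ptpn13 among higher genes and Msc, Has2, Tnc and Flnc among lower genes. The 10 genes of lowest p that passed with all libraries and not without Tyrphostin 6 were Sdc1, Fam110c, Entpd1, Tnfaip6, Gpr83, Plpp3, Kirrel3os, Rasgef1b, Dusp6 and Cyp19a1, with edgeR adjusted p-values of 0.0521 to 0.0872.

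**Figure D3:**
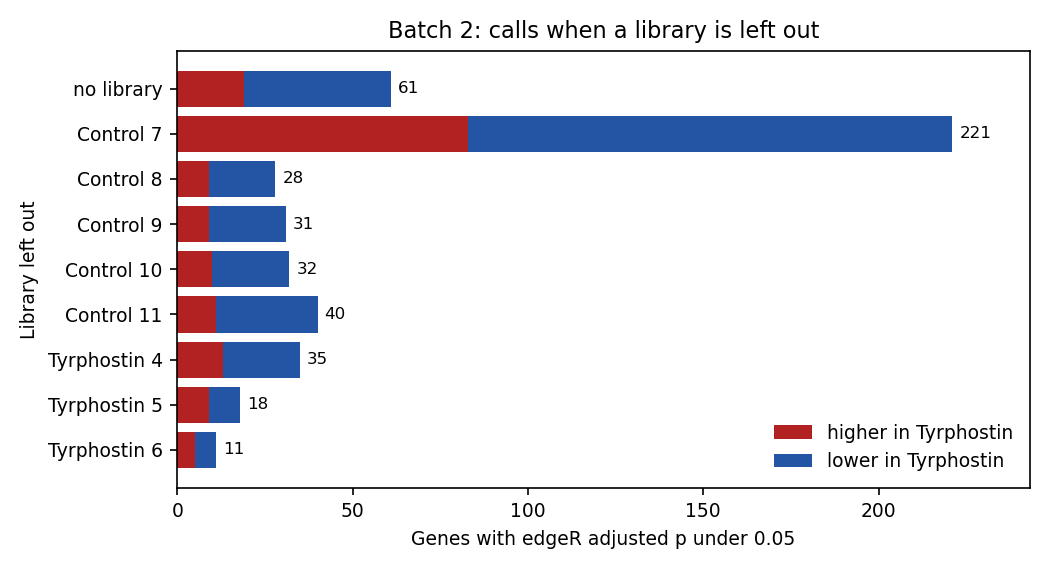
Number of genes with an edgeR adjusted p under 0.05 in batch 2 (horizontal axis) with all 8 libraries and with each library left out (vertical axis), split into genes higher (red) and lower (blue) in Tyrphostin. The bar without Control 7 reaches 221, and the other omissions give 11 to 40 against 61 with all libraries.

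Omission of Control 7 added 161 genes. In batch 1, whose libraries are separate, 94 of the 161 were called in the same direction, beside 6.73% of all genes tested there in either direction. The 10 of lowest p were Rnf125, Foxo3, Foxp1, Slc23a2, Neu1, Igsf11, Hao2, Ormdl3, Ccnd2 and Lhfpl2. Ccnd2, cyclin D2, which FSH and oestradiol induce in granulosa cells, had 518 CPM in Control 7, 185 to 257 CPM in the other Control libraries and 512, 649 and 1190 CPM in Tyrphostin libraries. Its log2 FC was 1.46 with all libraries (edgeR adjusted p = 0.113) and 1.79 without Control 7 (edgeR adjusted p = 0.00785). Foxo3, a transcription factor that growth factor signalling through AKT keeps out of the nucleus, had 48.1 CPM in Control 7, 22.3 to 31.1 CPM in the other Control libraries and 70.6, 73.3 and 57.4 CPM in Tyrphostin libraries. Rnf125, a ubiquitin ligase, had 37.1 CPM in Control 7, 109 to 203 CPM in the other Control libraries and 34, 26.3 and 18.7 CPM in Tyrphostin libraries. The biological coefficient of variation common to all genes was 0.35 with all libraries and 0.295 without Control 7.

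Control 7 and Control 9 stood apart in measures over many genes. In a principal component analysis of the 500 most variable genes, Control 7 and Control 9 were the ends of the first component (44.1% of the variance, scores of -32.2 and 34.1), of which treatment accounted for 3.94%. Treatment accounted for 87.2% of the second component (23.1% of the variance). The glycolysis list summed to 47716, 23415, 9114, 29115 and 21443 CPM in Control 7 to Control 11 and to 24052, 28684 and 12207 CPM in Tyrphostin 4 to Tyrphostin 6. Control 7 was the highest Control library for 17 and Control 9 the lowest for 18 of 19 members, and Tyrphostin 6 was the lowest of its group for 17. Ldha, lactate dehydrogenase A, had 13900 CPM in Control 7 and 1920 CPM in Control 9, and Slc2a1, a glucose transporter, had 4350 CPM in Control 7 and 285 CPM in Tyrphostin 6. A list of genes that low oxygen is known to induce, chosen after seeing the data, shares Slc2a1 and Hk2 with the glycolysis list. It too was highest in Control 7 (8595 CPM) and low in Control 9 (1579 CPM), but lowest in Tyrphostin 6 (961 CPM). Bnip3, a mitophagy receptor of that list, had 820, 19.5 and 35.7 CPM in these 3 libraries. In neither list did a gene pass between the groups in edgeR (0 of 19 and 0 of 14), and the median log2 FC was -0.41 in both. At an unadjusted p under 0.05 the lists had 0 and 1, beside 1047 of all 9830 genes tested. With the level of the glycolysis list as a covariate, an alternative chosen after seeing the data, 148 genes passed, including the 61. The part of these library differences in the treatment results was not otherwise tested.

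**Figure D4:**
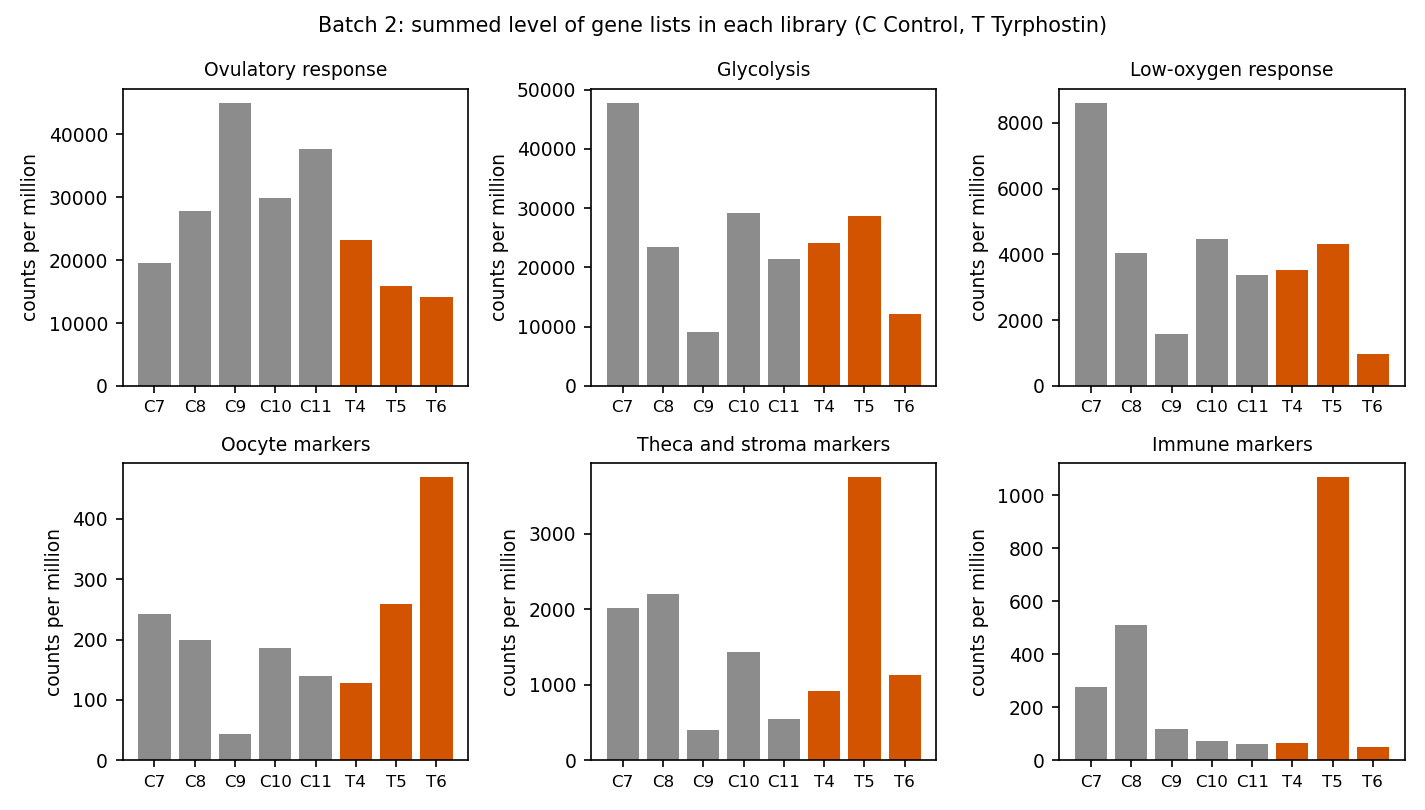
Summed CPM of 6 gene lists, relative to total counts without TMM (one panel each, vertical axes in CPM starting at 0), in the 5 Control libraries (grey, C7 to C11) and the 3 Tyrphostin libraries (orange, T4 to T6) of batch 2. Glycolysis and low-oxygen genes are highest in C7 and low in C9 and T6, oocyte markers are highest in T6, and theca, stroma and immune markers are highest in T5.

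Markers of other cell types also differed between libraries of a group. The immune list summed to 1068 CPM in Tyrphostin 5, against 63 and 48 CPM in the other Tyrphostin libraries, and to 512 CPM in Control 8, against 61 to 276 CPM in the other Control libraries. Of its 10 members 2 were tested and 0 called. Lyz2, the lysozyme of macrophages, made up most of it, with 870 CPM in Tyrphostin 5 and 467 CPM in Control 8. Cd68, Adgre1, C1qa, C1qb, C1qc and Tyrobp, too low to be tested, had their highest counts in the same 2 libraries. Such counts are not scaled for depth, and Control 8 was the deepest library (8291024 total counts). Csf1r, the receptor of a macrophage growth factor, had 12.4 to 21.8 CPM in all 8 libraries. C1qb, a complement chain that macrophages make, had 62 counts in Tyrphostin 5 and 76 in Control 8, against 2 to 8 elsewhere, and Adgre1, the macrophage surface protein F4/80, had 25 and 14, against 1 to 5. Ptprc, which defines leukocytes, had at most 10 counts and Cd3e, which defines T cells, at most 5. Theca and stroma markers ranged from 395 to 2200 CPM in Control and were 916, 3749 and 1130 CPM in Tyrphostin libraries (9 of 11 tested, 0 called, 9 of 9 with a positive log2 FC, median 0.41). Oocyte markers ranged from 43 to 242 CPM in Control and were 128, 259 and 469 CPM in Tyrphostin libraries (13 of 15 tested, 0 called, 11 positive, median 0.56). Zp2, a protein of the zona pellucida, had 82.1 CPM in Tyrphostin 6 and 3.25 to 26.3 CPM elsewhere. Granulosa markers summed to 79609 to 102303 CPM in Control and to 110955, 94580 and 112303 CPM in Tyrphostin libraries. Of their 8 tested members 2 were called, Cyp19a1 and Nr5a2, beside 0.621% of all genes tested. Smooth muscle, endothelial, surface epithelium and erythroid markers summed to at most 65, 25, 23 and 2 CPM in any library. Without Control 8 and Tyrphostin 5, an alternative chosen after seeing the data that leaves 4 and 2 libraries, 3 genes passed: Msc, Has2 and Rasd1. There the log2 FCs of St3gal5 and Nr5a2 were 2.59 and 2.09, beside 2.54 and 2.07 with all libraries. The part of other cell types in the treatment result was not otherwise tested.

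Batch 1, with 6 Control and 3 Tyrphostin libraries that batch 2 does not share, gave the same genes a separate measurement. There 634 of 9423 genes (6.73%) were called, 277 higher (2.94%) and 357 lower (3.79%). Of the 61 genes called in batch 2, 60 were tested there, 59 had the same direction and 52 were called, 14 of them higher and 38 lower. Msc had a log2 FC of -4.17 in batch 1 beside -4.35 in batch 2, St3gal5 2.83 beside 2.54 and Ptpn13 1.65 in both. Ptgs2 had -2.45 beside -2.33. Other genes lay further apart, such as Has2 with -1.76 in batch 1 beside -2.97 and Cyp19a1 with 2.79 beside 1.86. The 8 that were tested and not called in batch 1 were Map3k1, Tubb3, Wdr82, Peg3, Pik3r1, Entpd1, Hmga1b and Heyl. Tubb3 alone had the opposite direction, with Control at 14 CPM ± 10.5 (SD, n = 6) and Tyrphostin at 10.5 CPM ± 3.9 (SD, n = 3) in batch 1. Peg3 had 98.5 CPM ± 34.4 (SD, n = 6) and 116 CPM ± 62.8 (SD, n = 3) there, beside 50.1 CPM ± 13.9 (SD, n = 5) and 134 CPM ± 24.5 (SD, n = 3) in batch 2. The difference between batches was tested over all genes, and the interaction of treatment and batch passed for 0 of 10407 genes in edgeR and for 0 in DESeq2, with 392 at an unadjusted p under 0.05 in edgeR, while with no filter on low counts 79 passed. The interaction for Tubb3 was 2.16 on the log2 scale (unadjusted p = 0.0074) and for Peg3 1.18 (unadjusted p = 0.0169), each with an edgeR adjusted p of 1.

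**Figure D5:**
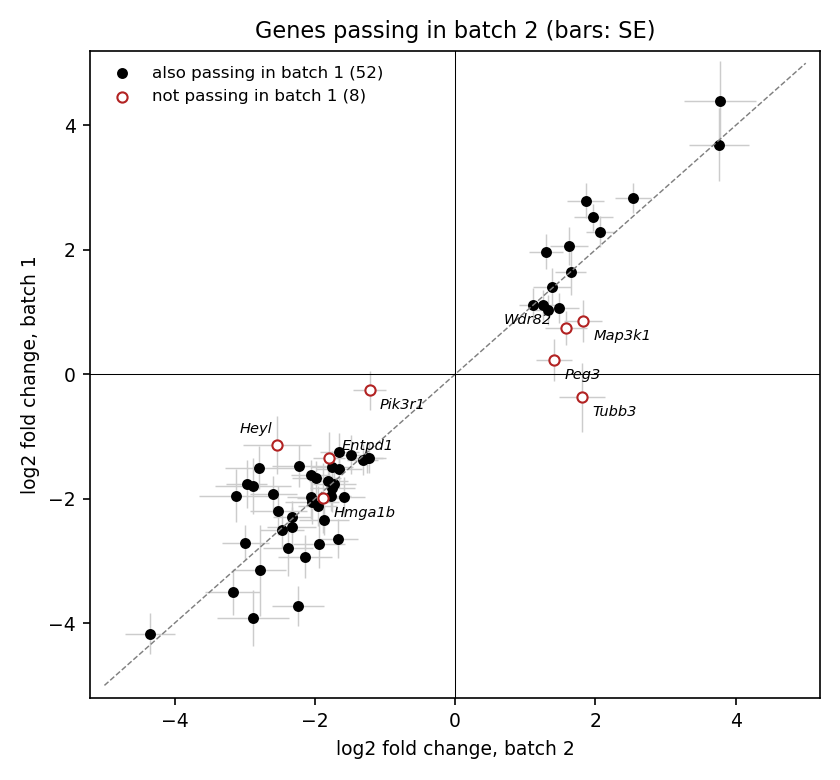
Log2 fold change in batch 1 (vertical axis) against batch 2 (horizontal axis) for the 60 genes called in batch 2 and tested in both, with bars of 1 SE and a dashed line of equal values. Filled points (52) were also called in batch 1 and open points (8) were not; all but Tubb3 lie in the quadrants of equal direction.

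The 5 genes of lowest interaction p were Col6a1, Col6a2, Aloxe3, Tpbg and Mycn. Col6a1 and Col6a2 encode chains of collagen VI. Col6a1 had 82.4, 103, 43.2, 61.1 and 39.8 CPM in Control and 67.7, 204 and 124 CPM in Tyrphostin libraries of batch 2, with Tyrphostin 5 the highest of the 8. Its log2 FC was 1.00 in batch 2 (edgeR adjusted p = 0.348) and -1.14 in batch 1 (edgeR adjusted p = 0.00489), and the interaction was 2.13 ± 0.45 (SE; edgeR adjusted p = 0.856). For Col6a2 the values were 1.02 and -0.84. None of the 5 was called in batch 2.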

How the data were processed

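Bulk RNA-seq was compared between the 5 Control and 3 Tyrphostin libraries of batch 2. The authors deposited 1 table of whole-number counts per gene symbol, not normalized. Per the labels' protocols, RNA was extracted with SPRI beads and sequenced as Smart-Seq2 libraries, a protocol that has no molecular identifiers. STAR, HTSeq and GRCm38 are named in the submitters' processing notes, with no versions; annotation, strandedness and filters are not given in the sources used here. Reads of paralogs and overlapping genes may therefore be split or merged.

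The test was that of edgeR 4.0.16 under R 4.3.3 (genes kept by filterByExpr on treatment, TMM, estimateDisp, robust glmQLFit, quasi-likelihood F test, Benjamini-Hochberg adjustment over all genes tested, threshold 0.05). The SE is the log2 fold change divided by the square root of F. CPM of single genes uses TMM-scaled library sizes. Summed levels of gene lists are relative to total counts without TMM. Batch 1 was fitted alike, and the interaction over all 17 libraries. Alternatives used DESeq2 1.42.0, limma 3.58.1, other scalings and filters, and omission of each library. The gene lists, the members and the naming rule were chosen with earlier results of these data known. The rule named the 15 highest and 15 lowest log2 fold changes among called genes with an average log2 CPM of at least 2, list members, the leading genes of the omissions, the interaction and the libraries that stood apart. Transcript lengths came from GENCODE. One called gene is not reported here by name. No pair of libraries of a group was alike within sampling noise (chi-square over its degrees of freedom 17.8 to 97.2). On simulated counts for the batch 2 comparison (9830 genes), 6% of 100 genes changed by 1 on the log2 scale and 74% of 100 changed by 2 were recovered, and 4 of 84 calls were unchanged genes. Intervals for shares are 95% Wilson intervals and cover counting error only.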

Additional observations from a re-analysis of the deposited data

Results flagged for a closer look

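Among 43 groups of values searched for a library far from its group, 4 had one, beside about 2.1 that chance gives. The share of counts in mitochondrially encoded genes was 0.175% in Control 7 (95% Wilson interval 0.171% to 0.179%) and 1.74% to 1.94% in the other Control libraries, beside 0.781%, 1.32% and 0.797% in Tyrphostin libraries. mt-Co1, a subunit of cytochrome oxidase, had 157 CPM in Control 7 and 11000 to 14500 CPM in the other Control libraries, and the mitochondrial transfer RNA gene mt-Ts1 had 0 counts there, which allows up to 0.713 CPM. The share in ribosomal protein genes was 3.32% in Control 7 and 1.39% to 1.91% in the other Control libraries. Sdc1 had 3480 CPM in Control 10 and 1350 to 1800 CPM in the other Control libraries. Erythroid markers made up 0.000162% of counts in Control 11 (95% Wilson interval 7.86e-05% to 0.000335%) and up to 4.49e-05% in the other Control libraries, a matter of a few counts.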

How the results depend on the processing

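With 61 calls as reported, RLE, upper-quartile and total-count scaling gave 66, 59 and 55, limma-voom 63, other count minimums 62 and 63, and Control libraries summed by set 72. DESeq2 gave 303 (87 higher, 216 lower), voom with sample weights 245, no filter 222, and the spread of all 17 libraries 201, and these held 61, 61, 61 and 59 of the genes called in the main analysis. An adjusted p under 0.01 left 20. Omitting 1 library gave 11 to 221. The alternatives chosen after seeing the data gave 152 without Control 7 and Control 9, 148 with the glycolysis covariate and 3 without Control 8 and Tyrphostin 5. The 30 genes named by size reversed in 0 of 774 values over 26 alternatives and omissions, and kept their call in 646. With limma-voom the calls of Tubb3, Clasp2, Has2os, Il23a, Tgm1, Pxdc1 and Heyl ended, with total counts those of Il23a, Tgm1 and Heyl, and with Control libraries summed by set those of Inhbb, Tubb3, Clasp2 and Heyl (adjusted p-values of 0.0519 to 0.131). With a replicate block by library number there were 75 calls (55 shared). Deviations of the same number correlated at -0.05, -0.27 and 0.06, and those of different numbers at -0.25 to 0.32. So few values cannot show whether the numbers pair the samples. Batch 1 gave 394 to 687 calls when 1 library was omitted, with 394 without Tyrphostin 2, against 634. The interaction gave 79 calls with no filter and 0 otherwise, and the leading one, Zfand5, had 1790 CPM in Control 9 and 10.2 to 256 CPM in the other Control libraries of batch 2. The causes of these shifts were not tested. Depth and 3 Tyrphostin libraries limit the test for changes of 1 or less on the log2 scale.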

Other observations

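Values of single libraries belong to no comparison. In Control 7, of 4556 abundant genes, 205 lay over 1 on the log2 scale above and 307 below every other Control library. Those furthest above were Ddb1, Mpc1 (the mitochondrial pyruvate carrier), P4ha2 (collagen prolyl hydroxylase), Hilpda (lipid droplets under low oxygen) and Anxa2. Across 4546 genes, which are not independent, the deviation of Control 7 had a Spearman correlation of -0.43 with transcript length. It was 0.09, 0.2, 0.22 and 0.3 for Control 8 to Control 11, and 0.3, 0.06 and -0.25 for Tyrphostin 4 to Tyrphostin 6. Over the 9793 tested genes with a transcript length, the treatment log2 fold change had a correlation of 0.01. In Control 9, Serpinb9b had 1.39 CPM, beside 146 to 287 CPM in the other Control libraries, and the lactate exporter gene Slc16a3 had 103 CPM, beside 987 to 2950 CPM. Serpinb9b and Bnip3 were also low in Tyrphostin 6, with 4.82 and 35.7 CPM, beside 70 to 79 and 533 to 615 CPM in the other Tyrphostin libraries. In Tyrphostin 5, Apoe had 664 CPM and Pdgfra, a receptor of stromal cells, 82.2 CPM, beside 73.7 to 104 and 11 to 16.3 CPM. In Tyrphostin 4, Dcn, the stromal proteoglycan decorin, had 72.5 CPM and the smooth muscle actin gene Acta2 10.5 CPM, beside 293 to 318 and 53 to 54.6 CPM.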
